A study of Mus musculus with 8 samples.

Results

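Interferon-stimulated genes are the genes that cells switch on when they sense interferon. Here 38 mouse genes of this kind were followed in microvessels of the developing and adult forebrain. They were chosen by name, with earlier results of these data known. A probe was taken as belonging to a gene where the accession in the array's annotation maps to that gene. By this rule 36 of the 38 genes had a probe and entered the tests, among 21939 genes tested of 32432 with a probe. Of the 21939, 15590 had a gene symbol. The others are accessions without a symbol, each counted as a gene, and several of them may belong to the same gene. The 32432 include such accessions too. Shares and medians given for all genes tested are over this mixed set. Mx1 and Mx2 were not analysed here.

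The samples were preparations enriched in forebrain microvessels from mice aged 5 days (P5), 10 days (P10) or labelled Adult. Forebrains were broken up in a Dounce homogeniser, the vessels were sedimented on density and the filtrate that passed 70 µm was kept, so wider vessels were left out. The labels name no genotype or treatment. The strain, sex, adult age and number of animals per preparation are not given in the sources used here. Agilent 2-colour arrays compared P5 with adult, P10 with adult in both dye orientations, and P5 with P10, in 2 replicates, which makes 8 arrays on a slide of 4 for each replicate. P5 RNA was in the Cy5 channel wherever it was used, and the dye effect was estimated from the P10 and adult arrays. Nothing says that the replicates came from separate litters, so p-values measure the spread between these samples only, which may be technical. Between 65.2% and 73.3% of spots were well above background on each array, and the small number of arrays limits the precision.

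The labelled tissue was checked against marker genes. All 18 endothelial markers and 11 of 12 pericyte and smooth muscle markers were well above background in every channel. So were 14 of 14 markers of microglia, 10 of 10 of granulocytes, 8 of 8 of astrocytes, 9 of 10 of mature neurons and 8 of 8 of fibroblasts. These bulk samples hold several cell types, and fewer cells of a type cannot be told apart from less RNA per cell.

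Interferons are secreted proteins that bind receptors on the cell surface and activate the kinases JAK1, JAK2 and TYK2. Type I and type III interferons lead to a complex containing STAT2 and IRF9 that binds the interferon-stimulated response element (ISRE). Type II interferon acts through the gamma-activated site (GAS) and induces IRF1, which binds ISRE-like sites in turn. The induced proteins block virus entry, translation and replication, mark intracellular vacuoles for destruction, and feed back on the signal. Brain endothelial cells carry interferon receptors, and a low level of this programme is known in unchallenged adult tissue.

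The stretches of promoter that follow are shown because they hold the motif cores through which these genes are known to be induced, and because the genes they belong to represent the different time courses described further on. Each runs 5′ to 3′ on the strand of its gene from base -140 to base -1 before a RefSeq start site (build GRCm38.p6), with the cores in capitals.
Irf1: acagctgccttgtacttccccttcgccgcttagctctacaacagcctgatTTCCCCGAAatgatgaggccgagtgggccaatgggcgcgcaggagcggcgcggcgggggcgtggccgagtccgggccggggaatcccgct
Ifit1: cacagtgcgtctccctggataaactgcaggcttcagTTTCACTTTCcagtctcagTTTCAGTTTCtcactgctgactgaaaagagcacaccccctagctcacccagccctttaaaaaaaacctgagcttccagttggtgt
Isg15: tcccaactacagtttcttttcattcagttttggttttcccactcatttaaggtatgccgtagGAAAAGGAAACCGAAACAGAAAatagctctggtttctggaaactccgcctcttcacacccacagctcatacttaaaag
Gbp2: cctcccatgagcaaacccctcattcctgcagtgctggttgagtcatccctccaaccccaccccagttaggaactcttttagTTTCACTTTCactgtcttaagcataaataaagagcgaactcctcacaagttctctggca
Bst2: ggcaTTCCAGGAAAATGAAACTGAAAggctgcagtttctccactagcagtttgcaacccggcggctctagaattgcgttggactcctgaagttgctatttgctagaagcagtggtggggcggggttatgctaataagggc
Rsad2: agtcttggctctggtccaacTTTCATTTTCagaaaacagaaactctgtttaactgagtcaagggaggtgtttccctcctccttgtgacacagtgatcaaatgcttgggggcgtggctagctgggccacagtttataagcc

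These stretches lie at chr11:53769874-53770013 on the + strand (Irf1), chr19:34640749-34640888 on the + strand (Ifit1) and chr4:156200819-156200958 on the - strand (Isg15). The others lie at chr3:142620523-142620662 on the + strand (Gbp2), chr8:71537473-71537612 on the - strand (Bst2) and chr12:26456453-26456592 on the - strand (Rsad2). The ISRE core was searched as 2 copies of GAAA with any 2 bases between them, which reads as 2 copies of TTTC on the other strand. The GAS core was searched as TTCNNNGAA, which reads the same on both strands. Ifit1 holds 2 separate ISRE cores, Isg15 holds 3 that overlap in 1 run, and Gbp2 and Rsad2 hold 1 each. Irf1 holds a GAS core only, and in Bst2 a GAS core overlaps the first of 2 ISRE cores.

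RefSeq windows of 300 bases (250 before to 50 after a start site) were found for 28 of the 38 genes. An ISRE core was present in 17 of the 28 genes, or 60.7%, against 3.99% of the 27025 genes with such a window. A GAS core was present in 11 genes, or 39.3%, against 9.55% of all genes. Both cores occurred in 7 of the genes (Oas1a, Gbp7, Igtp, Irgm2, Tgtp1, Bst2 and Ifitm3) and neither in 7 (Irf7, Irf9, Oasl2, Trim25, Dtx3l, Ifi44 and Xaf1). The plot of motif positions shows most ISRE cores before the start, with Ifih1 and Ifitm3 carrying theirs just after it. A match to these letters is a description of the sequence and no evidence of binding.

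**Figure D1:**
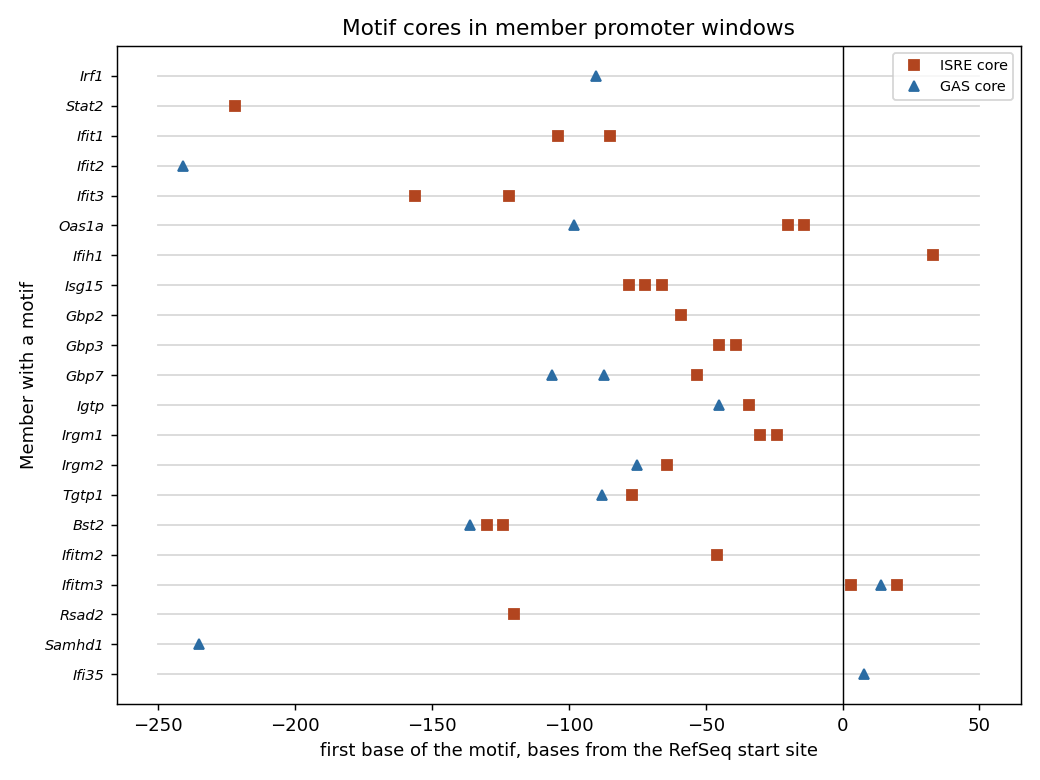
Positions of ISRE cores (squares) and GAS cores (triangles) in the promoter windows of the 21 genes that hold at least 1, as the first base of the motif in bases from the RefSeq start site (vertical line at 0). The cores of Isg15 start at -78, -72 and -66, those of Ifit1 at -104 and -85, and that of Rsad2 at -120.

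Most of these genes were lower in the preparations from young mice than in adult ones, and their signal rose with age. All 18 endothelial markers were lower at P5 as well, with a median log2 ratio of -1.85. The part of vessel cells in the ratios of the 36 genes was not tested. At P5, 32 of the 36 genes tested were lower than in adults and 28 of these by at least 2-fold, while Rsad2 and Gbp6 were higher and Stat2 and Iigp1 did not pass the test (limma, Benjamini-Hochberg adjusted p below 0.05). Among all genes tested 53.1% passed in either direction, 23% were lower, 30.1% were higher and 6.54% were lower by at least 2-fold. The median log2 ratio of P5 to adult over the 36 genes was -1.99 (replicates -2.11 and -2.02), against 0.09 over all genes. The intensities of both P5 samples lay below those of both adult samples for 33 of the 36 genes, and for 33.5% of all genes. Under each of 10 alternative ways of processing, 28 of the 34 calls held, and those of Irf9, Ifit3, Zbp1, Gbp6, Tgtp1 and Samhd1 were lost under at least 1.

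At P10, 28 of the 36 were still lower than in adults and none was higher. Among all genes 17.5% passed, 9.1% lower and 8.42% higher. The median log2 ratio was -1.27 (replicates -1.13 and -1.39), against 0.01 over all genes, and 21 genes were lower by at least 2-fold, against 2.69% of all genes. The 8 that did not pass were Irf7, Trim25, Gbp6, Tgtp1, Bst2, Ifitm2, Ifitm3 and Rsad2. Both P10 samples lay below both adult samples for 31 of the 36 genes and for 25.2% of all genes. The least stable of the 28 calls were those of Zbp1 and Dtx3l, each lost under 7 of the 10 alternatives.

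Between P5 and P10, 22 of the 36 were lower at P5, 4 were higher (Stat2, Gbp6, Iigp1 and Rsad2) and 10 did not pass. Among all genes 41.2% passed, 18.2% lower and 23% higher. The median was -0.79, with -1.10 in replicate 1 and -0.68 in replicate 2, against 0.06 over all genes. Both P5 samples lay below both P10 samples for 26 of the 36 genes and 31.4% of all genes. The full order, P5 below P10 below adult with no overlap, was met by 23 of the 36 genes and by 11.3% of all genes. The 3 comparisons share samples, so their counts are not independent of each other.

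The way background and dye were corrected moved these counts. In 1 alternative, background was fitted on all spots as they are, including 11 with a faulty background reading on 2 arrays. Of the 36 genes, 31 then passed for P5 against adult, 2 for P10 against adult and 0 for P5 against P10. Among all 21939 genes tested, 5379, 253 and 0 passed. For P5 against P10, 21 of the 36 and 7065 of all genes had an unadjusted limma p below 0.05. Setting this alternative aside, 18 of the 28 calls for P10 against adult and 15 of the 26 for P5 against P10 held under all the others. With each array centred on its median in place of loess, the median over all genes moved from 0.09 to -0.07 for P5 against adult and from 0.06 to -0.12 for P5 against P10. The medians of the 36 genes moved to -2.49 and -1.32, and 33 and 27 of them passed. Among all 21939 genes tested, 10770 and 9461 passed there.

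**Figure D2:**
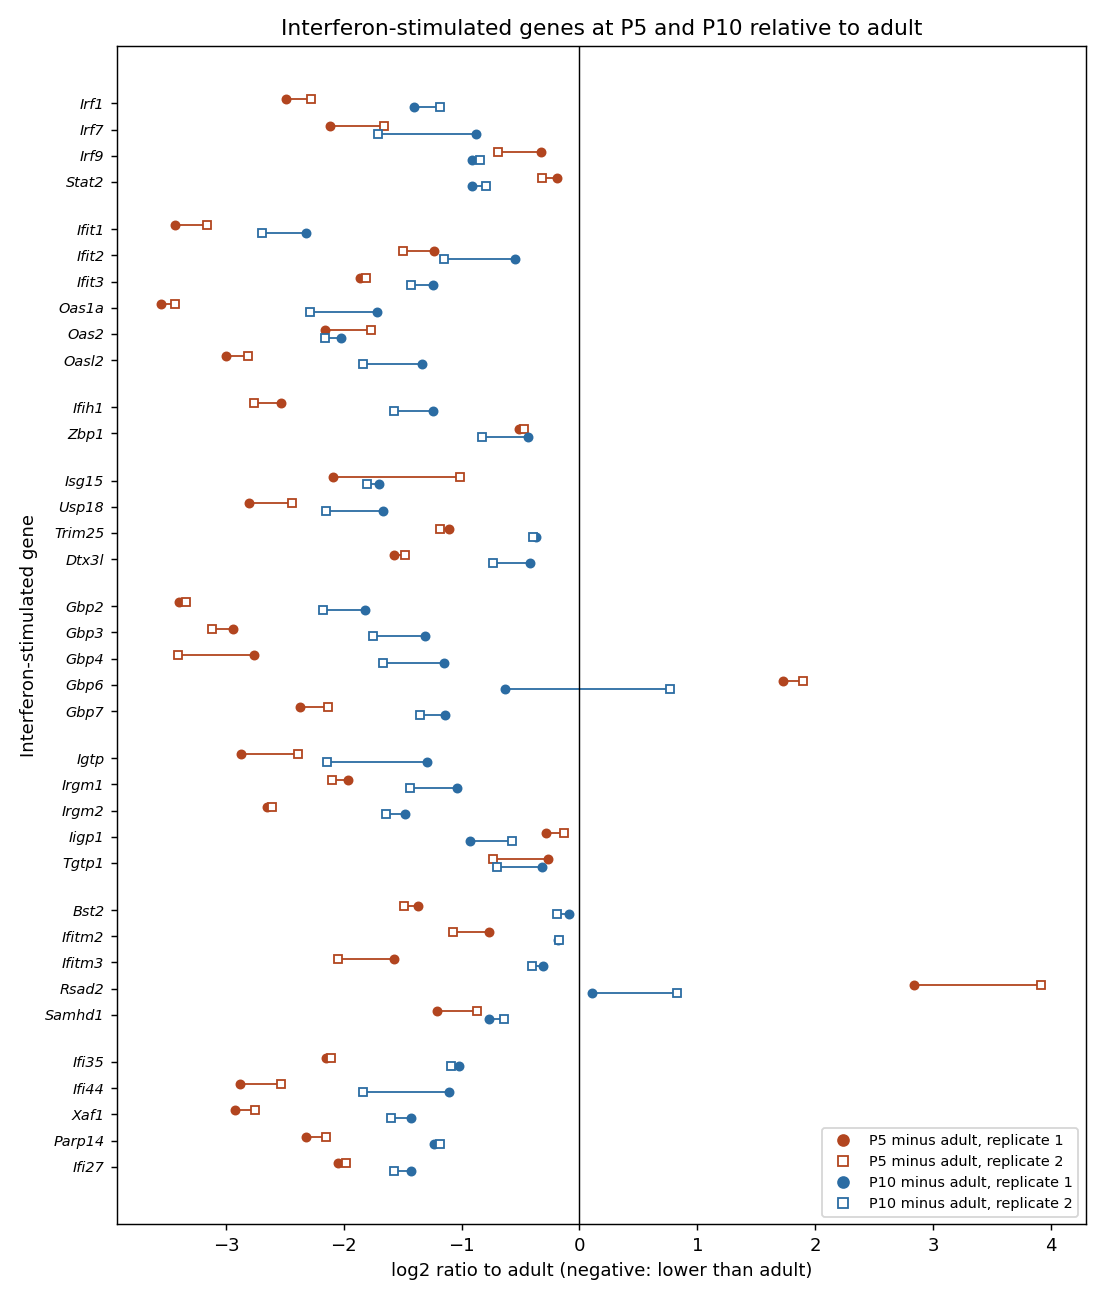
Log2 ratios to adult of the 36 genes at P5 (red) and P10 (blue), with replicate 1 as a filled circle, replicate 2 as an open square and a line joining them. Most pairs lie left of 0 with P5 further left than P10; Rsad2 (2.84 and 3.92 at P5) and Gbp6 (1.73 and 1.90) lie right of it.

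The transcription factors that drive the programme did not share 1 course. Irf1, which is induced by interferon gamma and activates many of the other genes, had log2 intensities of 10.06 and 10.38 at P5, 11.09 and 11.49 at P10, and 12.53 and 12.71 in adults (replicates 1 and 2). The ages did not overlap. Irf1 was lower than adult by 2.39 ± 0.11 on the log2 scale at P5 (5.23-fold, adjusted p = 0.000534) and by 1.29 ± 0.11 at P10 (adjusted p = 0.00457), where ± is the standard error of the fit over 2 replicates.

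Irf7, the amplifier of type I interferon production, measured 6.61 and 6.97 at P5, 7.93 and 7.20 at P10, and 8.84 and 8.98 in adults. It was lower at P5 than in adults (-1.89 ± 0.31, adjusted p = 0.00782), while at P10 the replicates were apart (-0.88 and -1.71) and the test was not passed (adjusted p = 0.0509, and from 0.0292 to 0.166 over the alternatives). Irf9, the DNA-binding part of the complex with STAT2, measured 11.04 and 10.73 at P5, 10.55 and 10.61 at P10, and 11.53 and 11.63 in adults. Its lowest samples were those of P10, which was lower than adult by 0.88 ± 0.14 (adjusted p = 0.0187).

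Stat2, the partner of IRF9 in that complex, was also lowest at P10. It measured 10.45 and 10.48 at P5, 9.70 and 9.92 at P10, and 10.69 and 10.74 in adults, so that P10 was below both other ages without overlap. P5 was 0.59 ± 0.11 above P10 (adjusted p = 0.0167) and did not pass against adult (-0.26, adjusted p = 0.103). With arrays centred on their median, Stat2 at P5 was lower than adult (-0.80, adjusted p = 0.0146) and did not pass against P10 (0.05, adjusted p = 0.857). Over the alternatives the adjusted p ran from 0.0146 to 0.625 for P5 against adult and from 0.0096 to 0.857 for P5 against P10.

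The IFIT proteins, which bind foreign RNA and block its translation, and the oligoadenylate synthetases, which activate RNase L on sensing double-stranded RNA, included some of the widest ratios. All 6 were lower at P5 and at P10 than in adults, with medians of -2.43 and -1.80. Among all genes tested, 23% were lower at P5 and 9.1% at P10. Oas1a, a catalytic synthetase, measured 7.55 and 8.05 at P5, 9.46 and 9.24 at P10, and 11.44 and 11.63 in adults. It was 11.3-fold lower at P5 than in adults (log2 ratio -3.49 ± 0.19, adjusted p = 0.000673).

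Ifit1 measured 6.42 and 6.24 at P5, 7.61 and 6.97 at P10, and 9.93 and 9.68 in adults. Most of its rise came after P10, where it was still 5.68-fold below adult (-2.50 ± 0.17, adjusted p = 0.00298). The promoter of Ifit1 carries the 2 ISRE cores printed above. Ifit2 and Ifit3 showed smaller ratios of P5 to adult (-1.36 ± 0.16 and -1.83 ± 0.11). Without the 2 arrays that hold faulty background readings, the Ifit3 ratio was -0.88 and missed the threshold (adjusted p = 0.0781), and its P5 to P10 ratio turned from -0.49 to 0.11. Over the alternatives the adjusted p of the former ran from 0.000336 to 0.0781. The P10 to adult calls of Ifit2 and Ifit3 were lost under 3 and 2 of the 10 alternatives, with adjusted p up to 0.169 and 0.13.

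Oas2, another synthetase, measured 7.27 and 7.57 at P5, 7.38 and 7.29 at P10, and 9.53 and 9.57 in adults. P5 and P10 overlapped, and the adult samples stood about 2 log2 units above both (-1.96 ± 0.15 for P5 and -2.09 ± 0.15 for P10). Oasl2, a synthetase-like relative, rose over both intervals (-2.90 ± 0.19 for P5 against adult and -1.59 ± 0.19 for P10 against adult).

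The 2 nucleic acid sensors differed in size. Ifih1, which encodes the double-stranded RNA sensor MDA5, measured 8.10 and 7.84 at P5, 9.45 and 9.10 at P10, and 10.75 in both adult samples. It was 6.26-fold lower at P5 than in adults (-2.65 ± 0.12, adjusted p = 0.000534). Zbp1, a sensor of Z-form nucleic acid, was lower by 0.49 ± 0.14 at P5 (adjusted p = 0.0403) and 0.63 ± 0.14 at P10. The P5 result for Zbp1 was lost with median centring (adjusted p = 0.0858) and ran from 0.017 to 0.115 in adjusted p over the alternatives.

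The genes of the ISG15 system and its ubiquitin ligases were all 4 lower at P5 than in adults (median -1.54), as were 23% of all genes. Isg15, the ubiquitin-like protein that is attached to other proteins, measured 10.92 and 11.61 at P5, 11.61 and 10.84 at P10, and 13.51 and 12.68 in adults. The adult samples were the highest in each replicate, and P5 and P10 overlapped, in the opposite order in the 2 replicates. Isg15 was lower than adult at P5 by 1.55 ± 0.31 (adjusted p = 0.0132), from -2.09 in replicate 1 and -1.01 in replicate 2. At P10 it was lower by 1.75 ± 0.31 (replicates -1.70 and -1.80, adjusted p = 0.025). The P10 call was lost under 4 of the 10 alternatives, with adjusted p up to 0.0705.

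Usp18 removes ISG15 and silences the type I receptor. It measured 7.56 and 7.47 at P5, 8.81 and 7.93 at P10, and 10.58 and 10.26 in adults, with a ratio of P5 to adult of -2.62 ± 0.21. Trim25, a ligase that acts with RIG-I, and Dtx3l, a partner of PARP9, had ratios of -1.15 ± 0.09 and -1.53 ± 0.13. Both came close to adult by P10: Dtx3l was lower by 0.58 ± 0.13 (adjusted p = 0.0472), and Trim25 at -0.38 did not pass (adjusted p = 0.0559).

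Guanylate-binding proteins, large GTPases that coat and break vacuoles holding pathogens, had the lowest median ratio of P5 to adult among the role groups (-3.03). Of 5 members tested 4 were lower at P5 than in adults, lower at P10 than in adults and lower at P5 than at P10. This pattern was met by 3.22% of all genes. Gbp2 measured 8.94 and 9.21 at P5, 10.45 and 10.32 at P10, and 12.47 and 12.82 in adults, and was 10.4-fold lower at P5 (-3.37 ± 0.14, adjusted p = 0.000525). Gbp4 stood 8.49-fold and Gbp3 8.17-fold below adult at P5, and Gbp7 4.75-fold.

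Gbp6 went the other way at its brighter probe. It measured 10.58 and 12.84 at P5, 8.36 and 11.50 at P10, and 8.85 and 10.53 in adults. The replicates were far apart at every age, and P10 lay below adult in replicate 1 and above it in replicate 2. Within each slide P5 was the highest, by 1.73 and 1.90 over adult (1.82 ± 0.36, adjusted p = 0.0126). The second Gbp6 probe, dimmer but well above background in every channel, gave -1.12 for the same ratio. With the median over probes the gene gave 0.35 (adjusted p = 0.0982), and without the replicate block 2.02 (adjusted p = 0.247). Over the alternatives the adjusted p ran from 0.00616 to 0.247, and the 2 probes give Gbp6 opposite directions.

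Immunity-related GTPases act with the guanylate-binding proteins on the same vacuoles. Igtp measured 8.60 and 9.13 at P5, 10.11 and 9.42 at P10, and 11.47 and 11.61 in adults, and was lower at P5 by 2.63 ± 0.32 (adjusted p = 0.00355). Irgm2 had the same ratio with a smaller error (-2.63 ± 0.10, adjusted p = 0.000525), and Irgm1 was at -2.03 ± 0.13. Both Irgm genes, which encode regulatory GTPases, rose over both intervals.

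Iigp1, an effector GTPase, had 2 probes that disagreed. The brighter probe measured 8.01 and 8.60 at P5, 7.97 and 8.15 at P10, and 8.44 and 8.77 in adults, and P5 and adult overlapped. It did not pass at P5 (-0.20, adjusted p = 0.215) and was lower at P10 than in adults (-0.75 ± 0.12, adjusted p = 0.0204), a call lost under 4 of the 10 alternatives. The other probe was not well above background in any P5 channel, and its fitted ratio of P5 to adult was -1.85. With dim P5 signals raised to the lowest signal called well above background, its mean adult intensity was 3.71-fold that of P5. This fold comes from intensities normalized between arrays and is no bound on the fitted ratio. With the median over both probes, Iigp1 was lower at P5 than in adults (-1.03, adjusted p = 0.00229, against up to 0.9 over the alternatives) and its P5 to P10 ratio changed sign (-0.09).

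Tgtp1, a T-cell-specific GTPase, was the only one of the 36 genes not well above background in every channel, with 3 of 4 at P5. It measured 6.47 and 6.32 at P5, 6.45 and 6.44 at P10, and 6.79 and 7.14 in adults, with P5 and P10 overlapping. The ratio of P5 to adult was -0.50 ± 0.15 (adjusted p = 0.0384), and the call was lost under 4 alternatives, with adjusted p up to 0.365. Its near-identical copy Tgtp2, measured by another probe, had a ratio of -3.41 ± 0.21. Whether transcripts of 1 gene bind the other's probe was not tested, so which gene each value belongs to is uncertain.

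The restriction factors act on viruses at membranes or on nucleotides. At P10, Samhd1 was called lower than adult among them, and Bst2, Ifitm2, Ifitm3 and Rsad2 did not pass. Bst2, the tetherin that holds budding virus on the cell, measured 9.95 and 9.33 at P5, 11.42 and 10.86 at P10, and 11.49 and 11.10 in adults. P10 and adult overlapped and P5 lay below both. P10 exceeded the midpoint of P5 and adult by 0.57 ± 0.08 (adjusted p = 0.024), the only one of the 36 genes above its midpoint by the test, while 6.16% of all genes were. With median centring this call was lost (0.90, adjusted p = 0.0502), and also without the 2 arrays with faulty readings (0.49, adjusted p = 0.112), and adjusted p ran from 0.017 to 0.385 over the alternatives.

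Ifitm3 and Ifitm2, membrane proteins that block virus fusion, were lower at P5 than at P10 and had no call for P10 against adult. Ifitm3 measured 11.46 and 10.55 at P5, 12.89 and 12.15 at P10, and 13.14 and 12.62 in adults. It was lower at P5 than in adults (-1.81 ± 0.15, adjusted p = 0.00139) and at P10 did not pass (-0.35, adjusted p = 0.181). Ifitm2 gave -0.92 ± 0.12 and -0.18. Samhd1, which breaks down deoxynucleotides, was lower at both ages (-1.04 ± 0.12 and -0.71 ± 0.12). Its P10 call was lost under 4 of the 10 alternatives (adjusted p up to 0.251), and its P5 call without the replicate block (adjusted p = 0.0608).

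Rsad2, which encodes viperin, a radical SAM enzyme that makes a chain-terminating nucleotide, had the highest ratio of P5 to adult among the 36. It measured 13.17 and 14.21 at P5, 10.55 and 11.11 at P10, and 10.45 and 10.31 in adults. Both P5 samples were the highest by more than 2 log2 units, and P10 lay above adult in both replicates by 0.11 and 0.83. The ratio of P5 to adult was 3.38 ± 0.26 (adjusted p = 0.00127) and of P5 to P10 2.91 ± 0.26 (adjusted p = 0.00513). On single arrays Cy5 over Cy3 was 2.72 and 3.84 for P5 over adult and 2.59 and 3.22 for P5 over P10. Only 1 probe measured Rsad2. Its promoter holds the ISRE core printed above, as do those of genes with the opposite ratio.

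The remaining 5 genes were lower at P5 than at P10 and lower at P10 than in adults, each by the test. They passed all 3 comparisons, a pattern met by 3.22% of all genes. Ifi27, a small hydrophobic membrane protein, measured 11.68 and 11.61 at P5, 12.34 and 11.99 at P10, and 13.84 and 13.62 in adults. Its ratio of P5 to adult was -2.02 ± 0.10 (adjusted p = 0.000619), and P10 lay below the midpoint of P5 and adult by 0.49 ± 0.09. The latter call was lost under 5 of the 10 alternatives, with adjusted p up to 0.895 under median centring, where the value was -0.05. The P5 to P10 call of Ifi27 was lost under 3 (adjusted p up to 0.098). Xaf1, a partner of the apoptosis inhibitor XIAP, was 7.13-fold lower at P5 than in adults and Ifi44 6.52-fold. The P10 to adult call of Ifi44 was lost under 4 of the 10 alternatives (adjusted p up to 0.141), and its P5 to P10 call under 2 (up to 0.193). Parp14, an ADP-ribosyltransferase, and Ifi35, a partner of NMI, were 4.71-fold and 4.37-fold lower.

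The timing of the change was compared through the 2 steps, P5 to P10 and P10 to adult. Of the 36 genes, 18 passed all 3 comparisons in the rising direction, as did 3.22% of all genes tested. A further 8 (Irf9, Ifit2, Oas2, Zbp1, Isg15, Usp18, Igtp and Samhd1) were below adult at both young ages with no called difference between P5 and P10, a pattern met by 4.11% of all genes. Among these Usp18 narrowly missed the threshold between P5 and P10 (adjusted p = 0.0501), and it was called lower at P5 under 6 of the 10 alternatives, with adjusted p from 0.0235 to 0.387. Trim25, Bst2, Ifitm2 and Ifitm3 were lower at P5 than at P10 and adult, with no called difference between P10 and adult, and so were 9.48% of all genes. Stat2 and Iigp1 were lower at P10 than at P5 and adult with no call between those ages, as were 0.889% of all genes. The P5 to P10 call was lost under 6 of the 10 alternatives for Iigp1 (adjusted p up to 0.575) and under 2 for Stat2. Rsad2, and Gbp6 at its brighter probe, were higher at P5 than at P10 and adult, with no call between P10 and adult. So were 17.9% of all genes. Irf7 and Tgtp1 were called in P5 against adult only, as lower, as were 5.75% of all genes.

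The 2 steps were set against each other by testing P10 against the mean of P5 and adult. By this test 7 genes lay below the midpoint (Irf9, Stat2, Ifit1, Oas2, Iigp1, Rsad2 and Ifi27), while 5.53% of all genes did and 11.7% passed in either direction. Among the genes that passed and were lower at P5 than in adults, Oas2 lay furthest below it (-1.11 ± 0.13, adjusted p = 0.0181), followed by Ifit1 (-0.86 ± 0.15, adjusted p = 0.0331). Rsad2 was below it as well (-1.22 ± 0.23, adjusted p = 0.0386), since most of its fall came before P10. The calls for Ifit1 and Rsad2 were lost without the replicate block (adjusted p = 0.107 for each), and each was lost under 5 of the 10 alternatives, with adjusted p up to 0.276 and 0.25. Those for Irf9 and Iigp1 were lost under 6 and 5, with adjusted p up to 0.274 and 0.306. Under median centring 2 of the 36 genes passed this test.

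**Figure D3:**
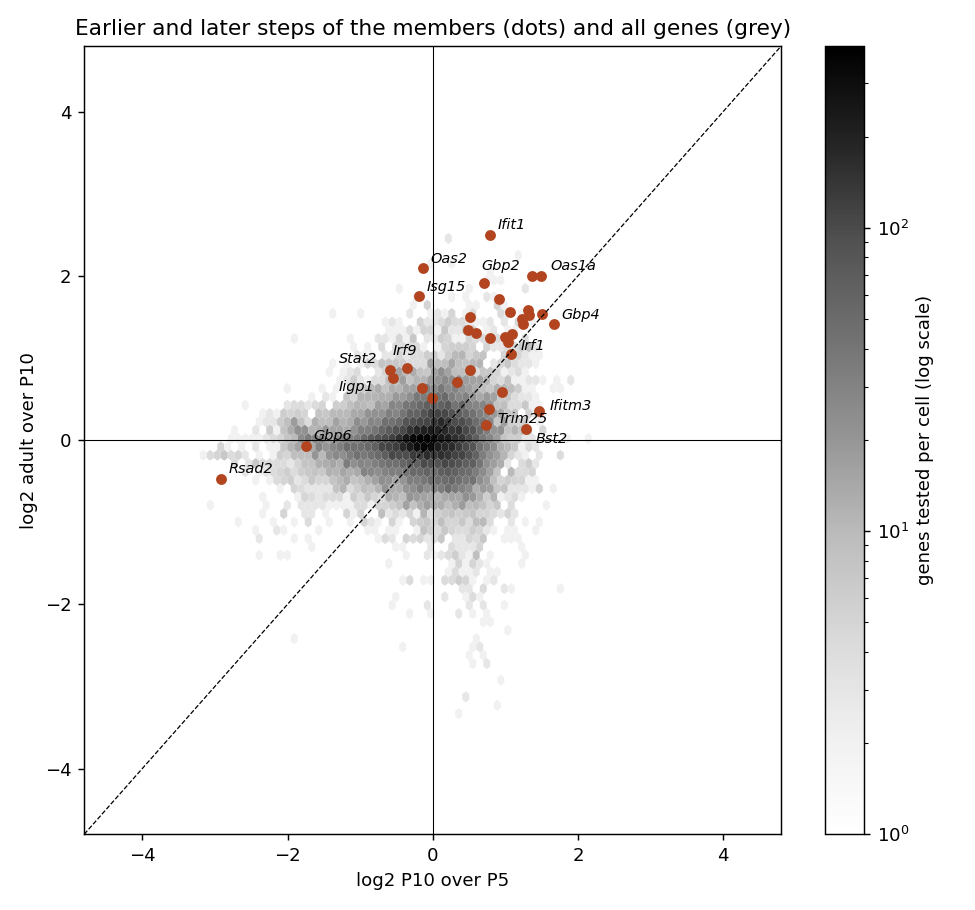
Log2 ratio of P10 to P5 (horizontal) against that of adult to P10 (vertical) for the 36 genes (red dots, some named) and for all 21939 genes tested (grey cells, darker with more genes on a log scale); the dashed line marks equal steps. Most red dots lie in the upper right, with Ifit1 (0.79 and 2.50) well above the line, Bst2 (1.29 and 0.14) below it and Rsad2 (-2.91 and -0.47) at the lower left.

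More than 1 probe was kept for 10 of the genes. In 5 of them (Oas1a, Isg15, Gbp6, Irgm1 and Samhd1) both probes were well above background in every channel. Their P5 to adult ratios had the same sign except for Gbp6. For Oas1a the brighter probe, which stands for the gene, gave the wider ratio (-3.49 and -2.35). The ratios were -1.55 and -1.49 for Isg15, -2.03 and -2.10 for Irgm1, and -1.04 and -0.89 for Samhd1. The second probe of Xaf1 was well above background in 2 of 4 P5 channels. Those of Ifih1, Dtx3l, Zbp1 and Iigp1 were so in no P5 channel, and their fitted ratios of P5 to adult were -0.61, -0.63, -0.50 and -1.85. With dim P5 signals raised to the lowest signal called well above background, mean adult intensity was 1.45-fold, 1.66-fold, 1.52-fold and 3.71-fold that of P5. These folds come from intensities normalized between arrays and are no bounds on the fitted ratios.

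**Figure D4:**
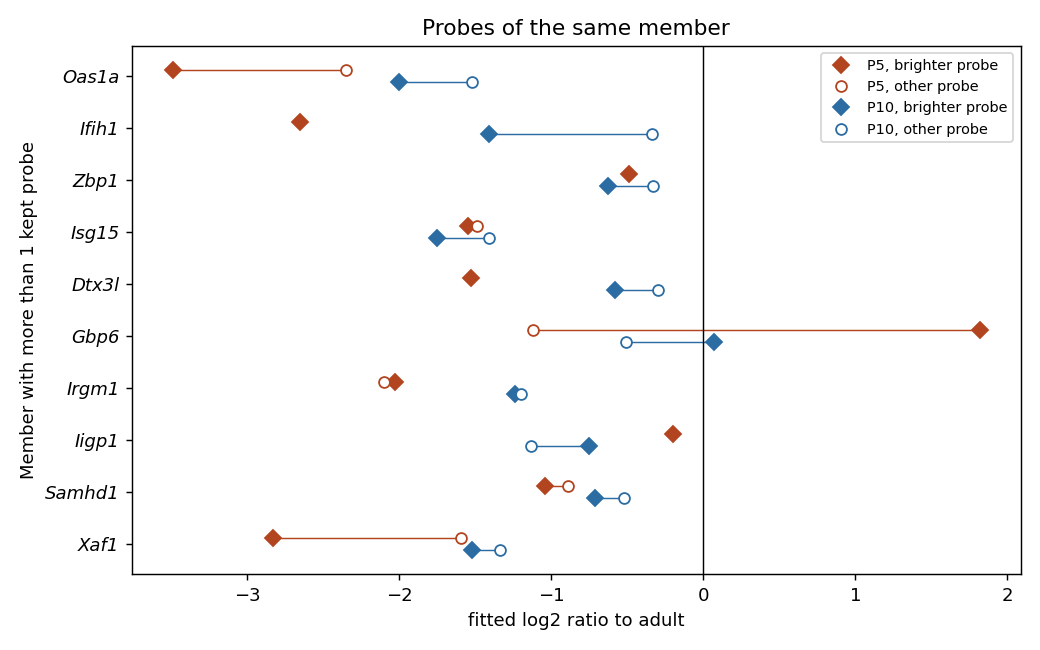
Fitted log2 ratios to adult at P5 (red) and P10 (blue) for the brighter probe (diamond) and the other probe (open circle) of the 10 genes with more than 1 kept probe. P5 points of probes not well above background in any P5 channel (Ifih1, Dtx3l, Zbp1 and Iigp1) are left out, and the probes of Gbp6 lie on opposite sides of 0 at P5 (1.82 and -1.12).

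The 2 replicates were further apart for these genes than for the average gene in the comparisons with P10. The median absolute difference between replicates was 0.32 log2 units for P10 against adult, against 0.16 over all genes, and 0.34 against 0.23 for P5 against P10. For P5 against adult it was 0.20 against 0.18. Replicate 1 had the lower P10 to adult ratio in 9 of the 36 genes. The replicates differed by over 0.5 in 9 genes for P10 against adult, with 9.14% of all genes, and in 10 for P5 against P10, with 18.9% of all genes.

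The signal upstream of these genes was measured in lists of ligands, receptors and regulators. Of all genes tested, 23% were lower and 30.1% higher at P5 than in adults. Interferon ligands were dim or not measurable: 7 of 21 listed genes entered the test, of which 3 were higher at P5 than in adults, namely Ifnl3 (1.06 ± 0.17), Ifna11 (0.95 ± 0.25) and Ifna1 (0.33 ± 0.11). Ifna11 was well above background in 3 of 6 adult channels. Of 11 receptor, kinase and STAT genes, 8 were lower and 1 was higher at P5 than in adults, with a median of -0.46. Il10rb, which encodes a chain of the type III interferon and interleukin-10 receptors, was lowest (-2.48 ± 0.11). Ifnar2, a chain of the type I receptor, followed (-1.59 ± 0.12), and Ifngr2, a chain of the type II receptor, was higher (0.85 ± 0.11).

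Other interferon regulatory factors and their binding proteins were lower in 4 of 7 and higher in none. Irf2, a counterpart of Irf1 at ISRE sites, was among the lower (-1.13 ± 0.13). Of 14 nucleic acid sensors and adaptors, 7 were lower and 2 higher, with Dhx58 lowest (-1.06 ± 0.10) and the DNA receptor gene Tlr9 highest (1.43 ± 0.22). Negative regulators had a median of -0.06, with 3 of 12 lower and 1 higher, where 23% and 30.1% of all genes were.

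Further genes known to be induced by interferon moved mostly in the same direction as the 36. Of 37 tested, 30 were lower at P5 than in adults and 4 were higher, with a median of -1.30. At P10, 21 were lower and 1 higher. Of all genes tested, 23% were lower and 30.1% higher at P5, and 9.1% lower and 8.42% higher at P10. Gbp5 had the lowest ratio (-3.64 ± 0.17). The 4 higher at P5 were Isg20 (3.23 ± 0.33), an exonuclease of RNA, Ube2l6 (3.02 ± 0.29), the conjugating enzyme for ISG15, Sp110 (1.61 ± 0.45) and Ifi30 (1.04 ± 0.14), the last 2 named after their values were seen. All 13 genes of MHC class I presentation tested were lower at P5 (median -2.12), from H2-Q7 (-2.62 ± 0.11) to Tap1 (-1.17 ± 0.23), and 11 were lower at P10. These lists were set with earlier results of these data known, and the class I genes are no independent support for the 36.

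Markers of the vessel cells moved with the same comparisons. All 18 endothelial markers were lower at P5 than in adults, with a median of -1.85 (replicates -1.83 and -1.94) and a range from -4.48 to -0.63. At P10 the endothelial median was -0.60, with 9 of 18 lower, where the 36 genes had -1.27. Between P5 and P10 the endothelial median was -1.25, with all 18 lower, where the 36 genes had -0.79. Of 11 pericyte and smooth muscle markers 10 were lower at P5 than in adults (median -1.60) and 3 at P10. Of all genes tested, 23% were lower at P5 and 9.1% at P10 than in adults, and 18.2% were lower at P5 than at P10. Myelinating oligodendrocyte markers had medians of -1.67 at P5 (7 of 10 lower, 1 higher) and -1.11 at P10 (7 of 10 lower) against adult. Their median was -0.43 between P5 and P10. Mature neuron medians against adult were -0.53 and -0.88, and those of astrocytes -0.43 and -0.10. Immature neuron medians were 2.25 and 0.89, and those of fibroblasts 0.91 and 0.73. The part of vessel cells, or of these other cells, in the ratios of the interferon-stimulated genes was not tested.

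Blood and immune cell markers were mostly not lower at P5 than in adults, where 30.1% of all genes tested were higher and 23% lower. Microglial markers had a median of 0.55 at P5 against adult (replicates -0.05 and 0.98), with 5 of 14 higher and 0 lower, and 0 of 14 passed at P10. Lymphocyte and natural killer cell markers had 6 of 11 higher and 0 lower, granulocyte markers 1 of 10 higher and 0 lower, and perivascular macrophage markers 1 of 7 higher and 3 lower. Red cell genes were higher in 8 of 8 at P5, with a median of 4.86 (replicates 4.41 and 5.19) and a range from 0.47 to 5.70, and had a median of 2.19 at P10. Rsad2, Isg20 and Ube2l6 had P5 to adult ratios of 2.84, 2.54 and 2.41 in replicate 1 and 3.92, 3.91 and 3.63 in replicate 2. The red cell and microglial medians were likewise higher in replicate 2. So were those of granulocytes (0.10 and 1.15) and of lymphocytes and natural killer cells (0.32 and 0.62). The medians of perivascular macrophages (0.04 and -0.34), immature neurons (2.24 and 2.17) and fibroblasts (1.09 and 0.73) were lower there. The brighter probe of Gbp6, also higher at P5, gave 1.73 and 1.90. Replicate values of Sp110 and Ifi30 are not reported here. The part of red cells, or of any other cell, in the ratios of Rsad2, Isg20 and Ube2l6 was not tested.

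**Figure D5:**
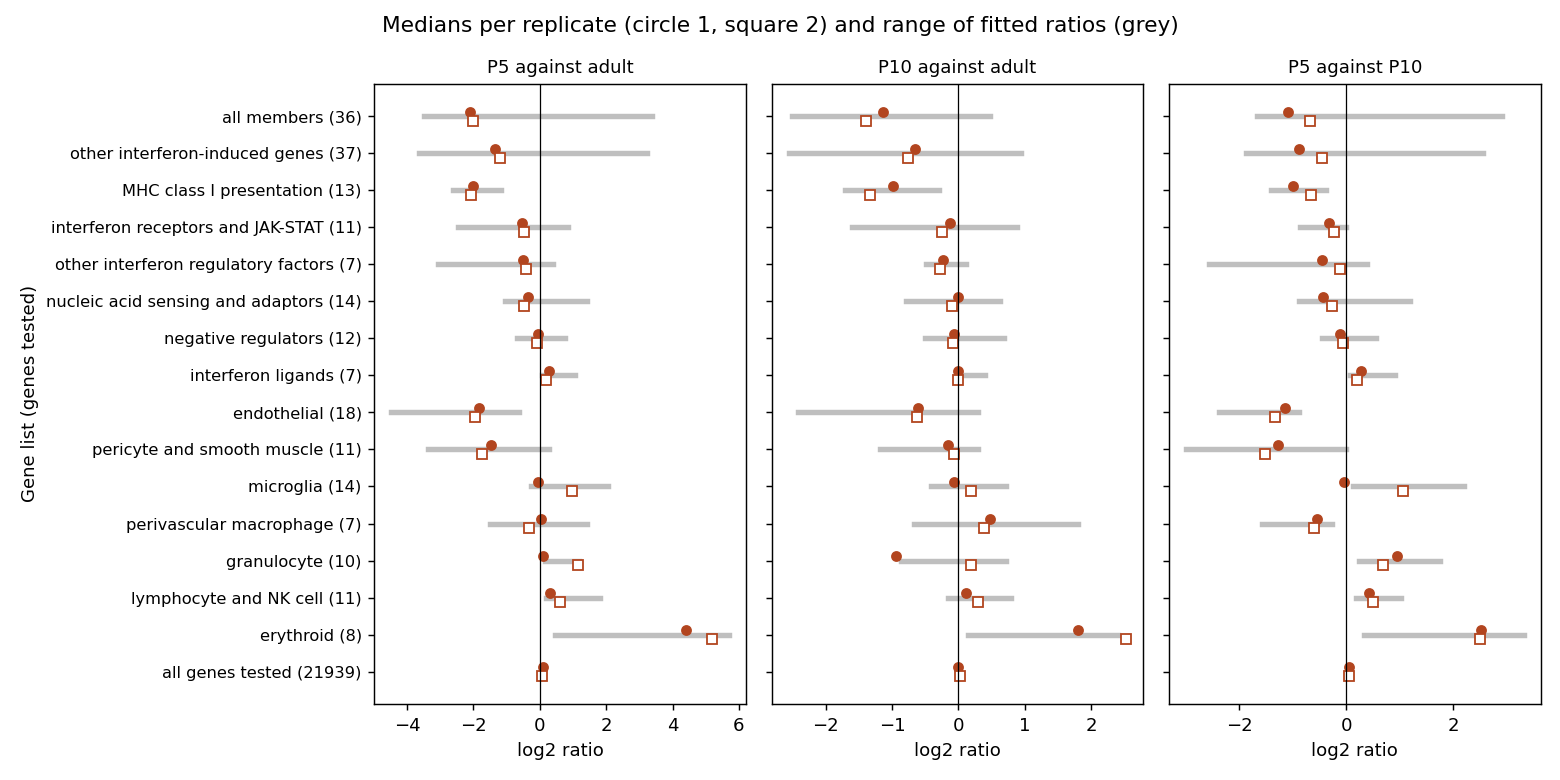
Medians of the log2 ratios in each replicate (circle for 1, square for 2) and the range of fitted ratios (grey bar) in the 3 comparisons. Shown are the 36 genes (all members), the interferon pathway, MHC class I, vessel, blood and immune cell lists, and all genes tested (medians only). The 36 genes and the endothelial list lie near -2 for P5 against adult (-1.99 and -1.85), the 36 lie further from 0 than the endothelial list for P10 against adult, and the red cell list lies at 4.86 for P5 against adult.

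The motif cores in the promoters were set beside the P5 to adult calls. Of the 17 genes with an ISRE core, 15 were lower at P5, Rsad2 was higher and Stat2 did not pass. All 11 genes with a window but no ISRE core were lower, among them the 7 with neither core. The 7 genes with both cores were lower as well. Of all genes tested, with or without a core, 23% were lower and 30.1% higher.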

How the data were processed

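The deposited files hold median spot and background intensities of 8 Agilent whole mouse genome arrays and a log10 ratio of Cy5 to Cy3. Per the file headers, Feature Extraction 10.5.1.1 made the intensities and background-corrected, dye-normalized log10 ratios, while the submitters' processing notes give version 12.6.

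Starting from the median intensities, background was corrected in limma 3.58.1 (R 4.3.3) by normexp with an offset of 50. Spots over 100 below their background in either channel, 11 on 2 arrays, were given the array's median background in that fit and then left out. Loess with a span of 0.3, in which control spots and outliers had no weight, removed intensity-dependent dye bias, and repeated spots of a probe were averaged. Of 39429 probes, 27427 had a gene symbol through RefSeq accessions and 27188 were kept because all channels of 1 or more ages exceeded background clearly (Agilent's flag). Where a gene had several probes the brightest on average stood for it, and no probe of the 36 genes was saturated. Log2 intensities given per sample are means over its channels after normalization between arrays (Aquantile). The 4 arrays of a slide gave 1 value per age and replicate by least squares with a dye term. Ages were tested with limma, with the replicate as a block and Benjamini-Hochberg adjustment over 21939 genes (2-sided, threshold 0.05). Ratios exist only within a slide, so the replicate number pairs the samples. The fit was tested on simulated data.

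The 36 of the 38 genes that have a probe are all named, and of each further list at most the 2 lowest and 2 highest ratios of P5 to adult, with exceptions stated; some genes of these lists are not reported here. The genes and lists were chosen with earlier results of these data known. Alternatives changed the background correction, normalization, filter, probe rule, dye term, block and arrays, or took the deposited log10 ratios turned to log2.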

Additional observations from a re-analysis of the deposited data

How the results depend on the processing

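With background fitted on all spots as they are, the genes called by limma were 5379 for P5 against adult, 253 for P10 against adult (2 of the interferon-stimulated genes), 0 for P5 against P10 (0) and 0 for P10 against the midpoint of P5 and adult (0). At an unadjusted p below 0.05, 7065 genes and 21 of the interferon-stimulated genes passed for P5 against P10 there, and 3387 and 11 for the midpoint. Counts for P10 against adult were 3843 as reported, 1279 with median centring, 1759 without the replicate block and 1885 without the 2 arrays with faulty backgrounds. For P5 against P10 they were 9034, against 5253 without the block and 5610 without those arrays. For the midpoint they were 2565 genes (8 of the interferon-stimulated genes), against 906 (2) with median centring, 1392 (3) with the deposited log ratios, 758 (2) without the block and 1117 (3) without those arrays. Median centring also turned the split over all genes for P5 against adult from 6598 higher and 5049 lower to 5019 higher and 5751 lower. Apart from the fit on all spots, 32 to 34 of the interferon-stimulated genes passed for P5 against adult, 21 to 30 for P10 against adult and 19 to 28 for P5 against P10. The sign of a called ratio changed for Iigp1 in P5 against P10 (-0.09 with the median over probes) and for Ifit3 (0.11 without the 2 arrays); the causes were not tested. Leaving out 1 replicate leaves 1 slide and no test, and the values are those given per replicate. Signal near background limits Tgtp1 and the second probes of Ifih1, Dtx3l, Zbp1 and Iigp1.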
